A study of Mus musculus with 4 samples.

Results

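The genes described here were 7 of the 16308 genes in the count tables: Prg4, Cxcl13, Gata6, Timd4, Icam2, F5 and Selp. They were chosen by name because they mark resident macrophages (Mφs) of the peritoneal cavity, and their rows were read in every leukocyte class of all 4 libraries and in single cells. All 7 had UMIs (unique molecular identifiers, each a counted RNA molecule) in the tables. A UMI of at least 1 of them was found in 281 WT and 225 CCR2 KO cells at 24 h and in 312 and 177 at 72 h, out of 5811 cells in all.

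The cavity around the gut holds 2 well known kinds of Mφ. Large peritoneal Mφs are long-lived residents whose identity depends on the transcription factor GATA6, which acts with retinoic acid signals from the surrounding mesothelium, while small peritoneal Mφs derive from monocytes and carry MHC class II. The outer surface of the intestinal muscularis faces this cavity. Among the 7 genes, Gata6 encodes the transcription factor, Timd4 (TIM-4) and Icam2 (intercellular adhesion molecule 2) encode surface proteins used to recognise these cells, Cxcl13 encodes the chemokine that attracts B cells through CXCR5, Prg4 encodes the lubricating glycoprotein lubricin, F5 encodes coagulation factor V and Selp encodes P-selectin, an adhesion receptor best known in platelets and endothelium.

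CD45+ leukocytes had been sorted from the small intestinal muscularis of mice aged 12 weeks after surgical handling of the gut (intestinal manipulation), and sequenced by droplet-based single cell RNA sequencing. The groups were WT C57BL/6J mice at 24 h, Ccr2-/- mice (B6.129S4-Ccr2tm1Ifc/J, CCR2 KO) at 24 h, WT mice at 72 h and CCR2 KO mice at 72 h post-injury, and all 4 groups had been operated. Each group was 1 library of pooled mice, so no difference between groups could be tested, and every interval given here is a 95% interval that covers counting error only. UMIs from 1 cell are not independent, which matters for Cxcl13 and Prg4, whose sums came from few cells.

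The libraries held 1674, 1774, 1315 and 1048 cells for WT and CCR2 KO at 24 h and then for both at 72 h, with 9736725 to 21206308 UMIs in all. Monocyte/Mφ-gated cells numbered 1281, 212, 899 and 127, or 76.5%, 12.0%, 68.4% and 12.1% of each library, and their median depth was alike, at 14175 to 15942 UMIs per cell. Neutrophils numbered 2424 and were shallow, with medians of 2067 to 3362 UMIs. The gate used marker genes that included none of the 7 genes and not Ccr2. Of 2519 monocyte/Mφ-gated cells, 51 lay near the cut of the gate. No pair of libraries shared more than 1 cell barcode. Ccr2 was at 758.4 and 1075 CPM (UMIs per 1000000 UMIs of the class) in WT and at 95.31 and 85.2 CPM in CCR2 KO monocyte/Mφ-gated cells, at 24 h and 72 h in that order. The 3′ tags counted here need not lie in the deleted part of the gene, so they do not check the knockout itself.

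Prg4, Cxcl13 and Gata6 were found mostly in monocyte/Mφ-gated cells, while Icam2, F5, Selp and Timd4 had a higher level in another class. Prg4 had 97.63% of its 845 UMIs in that class, Cxcl13 99.94% of 6217 UMIs and Gata6 96.55% of 29 UMIs. Neutrophils were read for free RNA: 0 of 2424 had a Prg4 or Gata6 UMI and 1 of 2424 had a Cxcl13 UMI, at a far lower depth per cell. In WT 24 h alone, 0 of 307 neutrophils allowed up to 3.778 CPM, above the gate's 0.9277 CPM of Gata6. In WT 72 h, 0 of 191 allowed up to 6.289 CPM, against gate levels of 6.641 for Prg4, 0.458 for Cxcl13 and 0.6107 for Gata6. This reading could therefore not tell Gata6, or the WT 72 h levels, from free RNA. Icam2, an adhesion ligand of lymphocyte integrins, was at 39.5 CPM in T cells, 37.06 CPM in NK/innate lymphoid cells (ILCs) and 43.37 CPM in B cells, against 13.68 CPM in monocyte/Mφ-gated cells and 3.239 CPM in neutrophils. F5 was at 16.84 CPM in neutrophils and 5.163 CPM in monocyte/Mφ-gated cells, and 0 of 289 dendritic cells (DCs), 215 T cells and 130 NK/ILCs had an F5 UMI. Selp had 52.31% of its UMIs in neutrophils, at 22.02 CPM, against 3.617 CPM in monocyte/Mφ-gated cells. Timd4 had 68.86% of its UMIs in DCs, at 17.58 CPM in 21 of 289 cells, against 1.206 CPM in 25 of 2519 monocyte/Mφ-gated cells, and 0 of 2424 neutrophils had one.

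**Figure D1:**
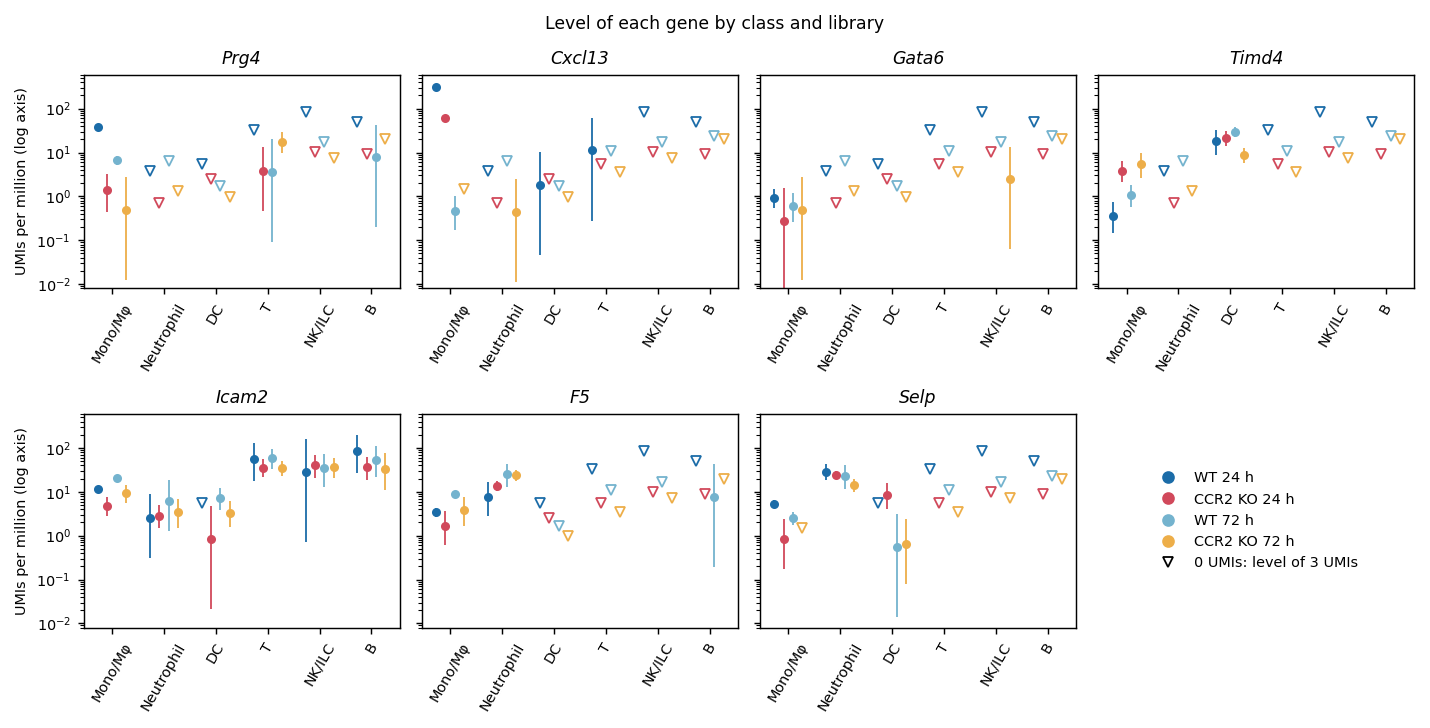
Level of each of the 7 genes (UMIs per 1000000 UMIs of the class, log axis) in 6 leukocyte classes of the 4 libraries, with 95% Poisson intervals of counting error; open triangles mark 0 UMIs and stand at the level of 3 UMIs. Prg4 and Cxcl13 sit highest in monocyte/Mφ-gated cells of WT 24 h (37.73 and 308.6 CPM), Timd4 in DCs, and Icam2 in lymphocytes.

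Cxcl13, the B cell chemokine, was at 308.6 CPM (300.8 to 316.5) in WT 24 h monocyte/Mφ-gated cells, from 5988 UMIs in 23 of 1281 cells. It was at 60.68 CPM in CCR2 KO 24 h, where 211 of 219 UMIs came from 1 of 4 positive cells, and at 0.458 CPM in WT 72 h, from 6 UMIs in 3 cells. In CCR2 KO 72 h, 0 of 127 cells had one, a count that allows a level of up to 1.469 CPM. The 24 h libraries were thus above the 72 h libraries in both genotypes, and WT was above CCR2 KO at 24 h.

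Prg4, which encodes lubricin, was at 37.73 CPM (35.04 to 40.56) in WT 24 h from 732 UMIs in 14 cells, and at 6.641 CPM (5.319 to 8.192) in WT 72 h from 87 UMIs in 16 cells. CCR2 KO 24 h had 5 UMIs in 4 cells (1.385 CPM) and CCR2 KO 72 h had 1 UMI (0.4897 CPM). The intervals of the WT libraries lay above both CCR2 KO libraries, whose intervals overlapped each other. In WT 72 h, 53 of the 87 UMIs came from 1 cell. The share of gated cells with Prg4 was not lower in CCR2 KO 24 h (1.887%, 0.5164% to 4.76%) than in WT 24 h (1.093%, 0.5987% to 1.827%). Those cells had median depths of 1971 UMIs in CCR2 KO 24 h and 19191 UMIs in WT 24 h.

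Selp, which encodes P-selectin, was at 5.257 CPM (4.286 to 6.381) in WT 24 h from 102 UMIs in 18 cells, and at 2.519 CPM (1.734 to 3.538) in WT 72 h from 33 UMIs in 20 cells. It was at 0.8312 CPM in CCR2 KO 24 h (3 UMIs) and at 0 of 127 cells in CCR2 KO 72 h. F5 was at 3.453 CPM (2.676 to 4.385) in WT 24 h, 1.662 (0.6101 to 3.618) in CCR2 KO 24 h, 8.855 (7.317 to 10.62) in WT 72 h and 3.917 (1.691 to 7.719) in CCR2 KO 72 h. WT 72 h was above both 24 h libraries for F5, and CCR2 KO 72 h overlapped each of the other 3.

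Icam2 was the most widely detected of the 7 genes in the gate, with 221 UMIs in 197 cells of WT 24 h (11.39 CPM, 9.937 to 12.99), 17 in 16 cells of CCR2 KO 24 h (4.71 CPM, 2.744 to 7.542), 265 in 168 cells of WT 72 h (20.23 CPM, 17.87 to 22.82) and 19 in 16 cells of CCR2 KO 72 h (9.304 CPM, 5.602 to 14.53). WT was above CCR2 KO at each time, and CCR2 KO 72 h overlapped both 24 h libraries. Timd4, a phosphatidylserine receptor, had the opposite order of genotypes. It was at 0.3608 CPM (0.145 to 0.7433; 7 UMIs in 4 cells) in WT 24 h, 1.069 (0.5843 to 1.793; 14 UMIs in 6 cells) in WT 72 h, 3.879 (2.121 to 6.508; 14 UMIs in 7 cells) in CCR2 KO 24 h and 5.386 (2.689 to 9.638; 11 UMIs in 8 cells) in CCR2 KO 72 h. The interval of each CCR2 KO library lay above both WT intervals.

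The 4 promoters that the RefSeq table for GRCm38.p6 holds for these genes are shown because Selp and F5 are neighbours on chromosome 1, 1811 bases apart on the plus strand, and both had UMIs in neutrophils and monocyte/Mφ-gated cells, while nearly all Cxcl13 UMIs were in monocyte/Mφ-gated cells and most Timd4 UMIs in DCs. Each sequence runs 5′ to 3′ on the plus strand, from 250 bases before the RefSeq start of the gene to 50 bases after it. For F5, Cxcl13 and Timd4 that start differs by some bases from the GENCODE start given below. Capitals mark matches on either strand to AGGTCA, a half-site of retinoid and other nuclear receptors, or to TTGCNNAA, a C/EBP motif. No match to the GATA motifs AGATAA or TGATAA was found in these windows. The windows are chr1:164115014-164115313 for Selp, chr1:164151585-164151884 for F5, chr5:95956689-95956988 for Cxcl13 and chr11:46810549-46810848 for Timd4.
Selp: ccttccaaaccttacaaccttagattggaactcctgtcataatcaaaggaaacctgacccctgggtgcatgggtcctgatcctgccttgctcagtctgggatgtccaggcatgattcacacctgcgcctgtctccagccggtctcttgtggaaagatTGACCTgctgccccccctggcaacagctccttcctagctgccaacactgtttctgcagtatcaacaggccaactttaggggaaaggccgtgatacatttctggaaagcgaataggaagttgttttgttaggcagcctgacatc
F5: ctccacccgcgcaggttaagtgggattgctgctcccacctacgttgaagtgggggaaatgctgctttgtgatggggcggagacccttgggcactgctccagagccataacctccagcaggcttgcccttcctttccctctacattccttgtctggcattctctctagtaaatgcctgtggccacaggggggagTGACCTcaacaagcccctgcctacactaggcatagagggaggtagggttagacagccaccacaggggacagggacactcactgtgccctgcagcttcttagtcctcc
Cxcl13: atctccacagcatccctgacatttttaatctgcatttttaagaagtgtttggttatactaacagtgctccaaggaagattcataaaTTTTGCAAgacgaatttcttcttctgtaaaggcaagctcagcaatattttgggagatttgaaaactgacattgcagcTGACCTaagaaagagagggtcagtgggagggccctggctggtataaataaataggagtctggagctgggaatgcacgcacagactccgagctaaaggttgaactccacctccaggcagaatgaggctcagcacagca
Timd4: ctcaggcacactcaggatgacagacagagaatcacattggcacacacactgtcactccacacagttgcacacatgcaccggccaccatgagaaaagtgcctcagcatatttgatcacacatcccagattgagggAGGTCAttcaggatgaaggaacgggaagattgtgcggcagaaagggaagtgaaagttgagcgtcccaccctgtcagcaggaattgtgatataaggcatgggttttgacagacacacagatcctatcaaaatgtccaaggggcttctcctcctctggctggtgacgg
Each of the 4 windows held 1 match to AGGTCA, written as its reverse complement TGACCT in Selp, F5 and Cxcl13, and Cxcl13 also held 1 match to the C/EBP motif. Of 32851 promoters of the same length, 16.26% held AGGTCA, 10.8% the C/EBP motif and 18.61% a GATA motif. A match describes these letters only.

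In the GENCODE annotation of GRCm38, Selp (ENSMUSG00000026580.16) lies at chr1:164115264-164150026 and F5 (ENSMUSG00000026579.8) at chr1:164151838-164220277, both on the plus strand. The annotated gene Gm16548 overlaps both on the minus strand and Gm16588 overlaps F5 on the same strand. How reads in the overlap of Gm16588 and F5 were counted was not checked. Cxcl13 (ENSMUSG00000023078.6) lies at chr5:95956951-95961068 and Timd4 (ENSMUSG00000055546.6) at chr11:46810800-46844332, both on the plus strand. Icam2 (ENSMUSG00000001029.15) lies at chr11:106377656-106388075 and Prg4 (ENSMUSG00000006014.16) at chr1:150449412-150466165, both on the minus strand, and Prg4 overlaps Tpr on the other strand.

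To compare monocyte/Mφ-gated cells of both genotypes, log2 ratios of summed levels were taken for genes with at least 20 UMIs over the pair of libraries, and a gene was called when the ratio passed 2-fold. At 24 h, 6 of the 7 genes could be compared: 1 was higher and 5 were lower in CCR2 KO. Of 10706 genes compared in the same way, 4.36% were called higher and 3.98% lower. The log2 ratio of CCR2 KO to WT was -4.77 (-6.39 to -3.54) for Prg4, -2.35 (-2.55 to -2.15) for Cxcl13, -2.66 (-4.96 to -1.07) for Selp, -1.27 (-2.08 to -0.56) for Icam2 and -1.06 (-2.55 to 0.14) for F5. It was 3.43 (2.02 to 4.98) for Timd4. The median over the 6 was -1.81, beside -0.06 over all genes compared. Without the cell with the most UMIs of the gene in each library, Cxcl13 was at -6.51 and Timd4, with 7 and 14 UMIs, could not be compared, nor could it among cells with at most 5% mitochondrial UMIs. When Leiden clusters took the place of the gate, Icam2 was at -0.98 and F5 at -0.33, below 2-fold.

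At 72 h, 5 of the 7 genes could be compared, of which 1 was called higher and 3 lower in CCR2 KO, while 7.73% of 10942 genes were called higher and 5.39% lower. Timd4 was again the gene that was higher, with a log2 ratio of 2.33 (1.05 to 3.58). Icam2 was at -1.12 (-1.88 to -0.45), F5 at -1.18 (-2.42 to -0.15) and Prg4 at -3.76 (-9.08 to -1.25). Without the cell with the most UMIs of the gene in each library, Prg4 had 0 UMIs in CCR2 KO and its log2 ratio was -0.81 or lower, and Timd4 had under 20 UMIs and could not be compared. Among cells with at most 5% mitochondrial UMIs, F5 turned to 0.55. Selp had 0 UMIs in CCR2 KO, which puts its log2 ratio at -0.78 or lower when 0 is read as 3 UMIs. The median over the 5 genes was -1.12, beside 0.10 over all genes compared.

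Between 24 h and 72 h in WT, all 7 genes could be compared, 2 of which were called higher and 3 lower at 72 h. The share of all 11500 genes called higher was 15.2% and the share called lower 5.63%. Cxcl13 was lower by the widest margin among the 7, with a log2 ratio of 72 h to 24 h of -9.40 (-10.84 to -8.27), followed by Prg4 at -2.51 (-2.84 to -2.18) and Selp at -1.06 (-1.67 to -0.48). Selp turned to 0.54 when single cells were averaged in place of summed and was at -0.99 with Leiden clusters, below 2-fold. F5 was higher at 1.36 (0.91 to 1.81), Timd4 at 1.57 (0.16 to 3.12) and Icam2 at 0.83 (0.57 to 1.09), the last below 2-fold. Gata6 was at -0.60 (-2.01 to 0.67), with 18 UMIs at 24 h and 8 at 72 h, a difference that could not be told from counting error. In CCR2 KO, 3 genes could be compared between the times, with 0 called higher and 1 lower, beside 14.0% and 4.95% of 9590 genes. That gene was Cxcl13, at a log2 ratio of -5.37 or lower, and it rested on the same single cell. Timd4 at 0.47 (-0.81 to 1.72) and Icam2 at 0.98 (-0.04 to 2.02) were not past 2-fold. These 4 comparisons share libraries, so they are not independent of each other. Fewer cells of a type and less RNA per cell cannot be told apart in such summed levels.

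**Figure D2:**
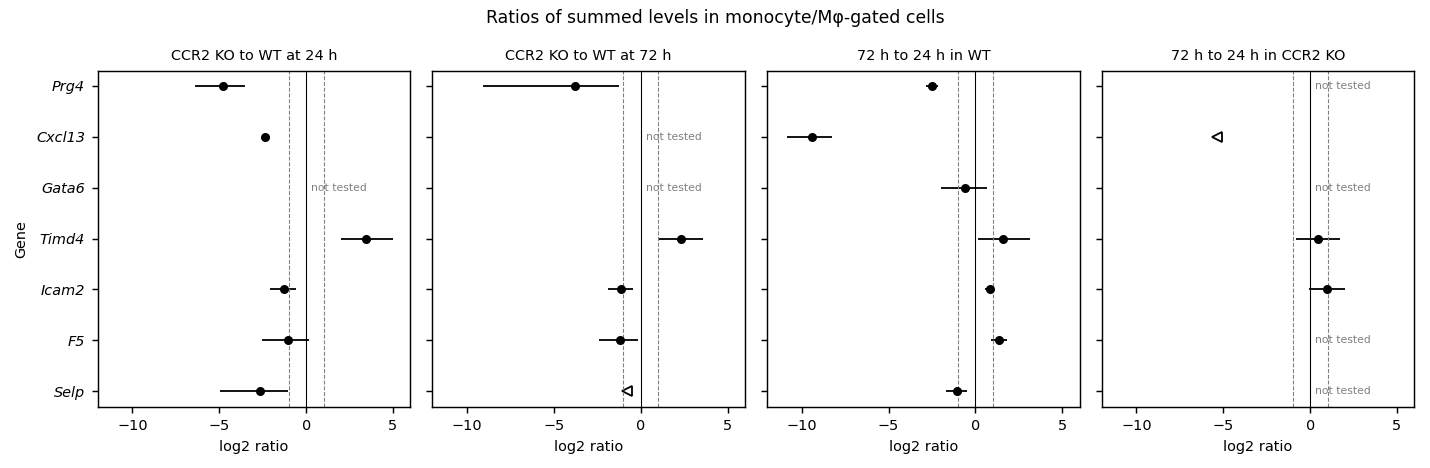
Log2 ratio of the summed level in monocyte/Mφ-gated cells for each of the 7 genes in the 4 comparisons, with 95% intervals of counting error; dashed lines mark 2-fold and open triangles mark an upper bound where the first library had 0 UMIs. Timd4 lies above 2-fold in CCR2 KO at both times (3.43 and 2.33), while Prg4 lies below it.

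Single cells showed where these sums came from. In WT 24 h, 10 of 1281 monocyte/Mφ-gated cells (0.7806%, 0.375% to 1.431%) had UMIs of 3 or more of the 7 genes, and those 10 held 99.04% of the Prg4 UMIs, 98.86% of the Cxcl13 UMIs, 83.33% of the Gata6 UMIs, 77.45% of the Selp UMIs and 70.15% of the F5 UMIs of the class. They held 4.977% of the Icam2 UMIs. Prg4 ranged from 12 to 107 UMIs per cell (median 71.5), Cxcl13 from 7 to 2059 (median 506.5) and Selp from 2 to 18, with all 3 genes present in 10 of 10 cells. F5 was present in 9, Gata6 in 7, Icam2 in 7 and Timd4 in 2 of them. Their depth was 15742 to 22053 UMIs, with a median of 19191 against 14118 in the 1040 cells with none of the 7, and 0 of the 10 were called doublets by Scrublet, a caller that marked 11 of 5811 cells in all, too few to judge doublets by.

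Gata6 (ENSMUSG00000005836.10), the transcription factor of resident peritoneal Mφs, lies at chr18:11052064-11085635 on the plus strand and overlaps 1010001N08Rik on the other strand. It was sparse, with 29 UMIs in 18 cells of all 5811. In the monocyte/Mφ gate it was at 0.9277 CPM (0.5498 to 1.466; 18 UMIs in 9 cells) in WT 24 h and 0.6107 (0.2636 to 1.203; 8 UMIs in 6 cells) in WT 72 h, with 1 UMI in each CCR2 KO library (0.2771 and 0.4897 CPM). The 4 libraries overlapped. In WT 24 h, 7 of the 14 cells with Prg4 had Gata6 (50%, 23.04% to 76.96%), against 2 of 1267 cells without Prg4 (0.1579%).

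In WT 72 h, 13 of 899 cells (1.446%) had 3 or more of the genes, and the mix was different. All 13 had Icam2 (1 to 13 UMIs), 11 had F5, 10 had Selp, 9 had Prg4, 5 had Gata6 and 1 each had Cxcl13 and Timd4. They held 89.66% of the Prg4 UMIs and 87.5% of the Gata6 UMIs of the class, and 31.9% of the F5 UMIs. Their depth was 1482 to 34690 UMIs, with a median of 11580 against 13162 in cells with none, and their median mitochondrial share was 6.701% against 4.25%. CCR2 KO 24 h had 2 such cells of 212 (0.9434%, 0.1145% to 3.366%), with 2491 and 3178 UMIs. CCR2 KO 72 h had 1 of 127 (0.7874%, 0.01993% to 4.309%), with 21264 UMIs. The intervals of these shares overlapped those of WT. No gene of the 7 exceeded 1 UMI in any of the 3 CCR2 KO cells. Outside the gate, 1 B cell of WT 72 h and 1 unclassed cell of CCR2 KO 24 h had 3 of the genes, and 0 neutrophils did.

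**Figure D3:**
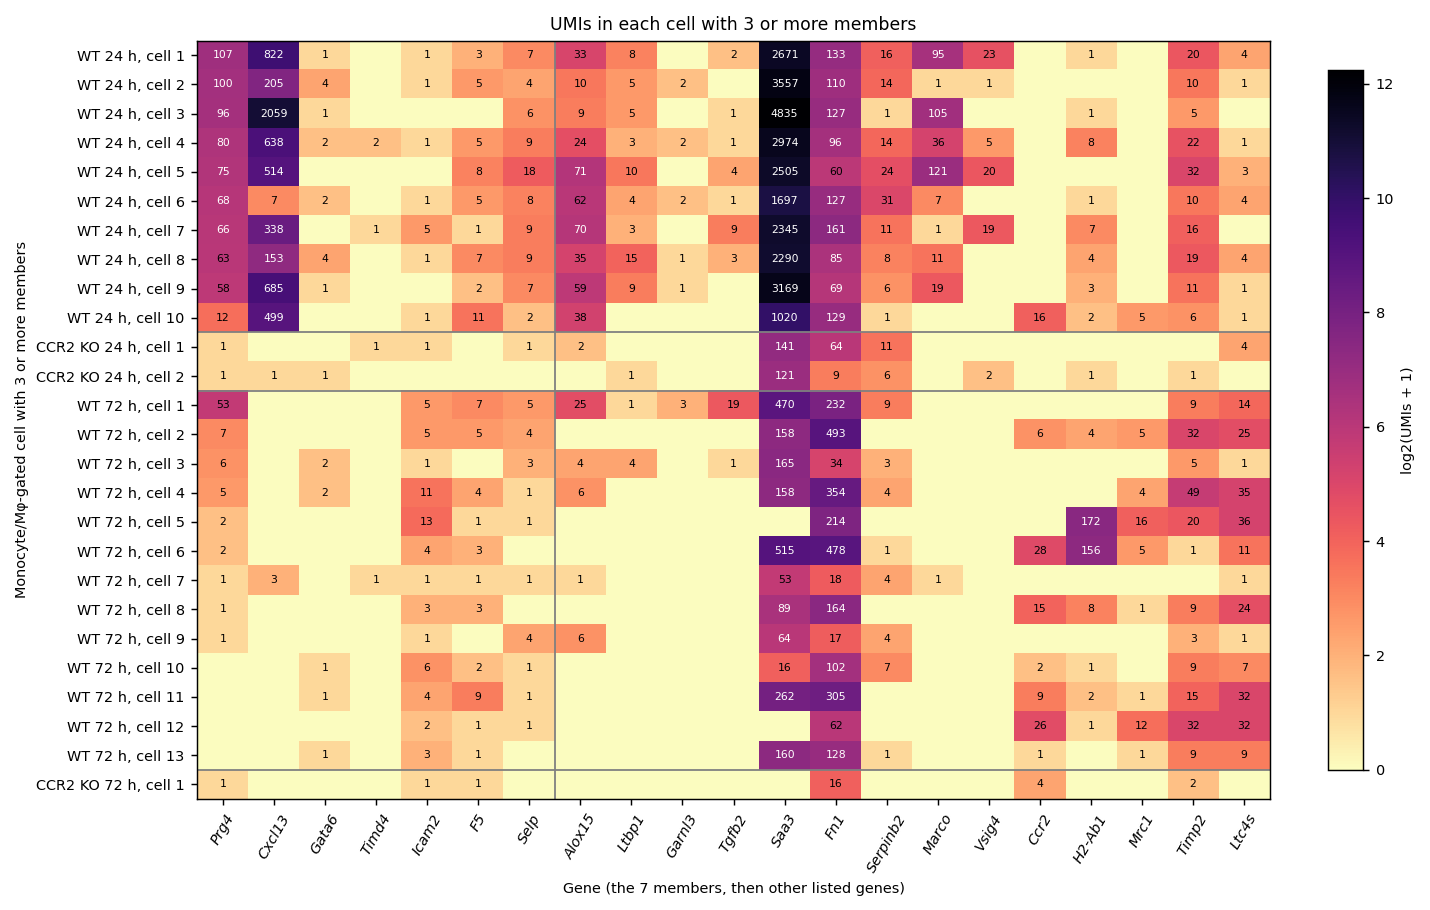
UMIs of the 7 genes and of 14 other listed genes in each monocyte/Mφ-gated cell with 3 or more of the 7; colour is log2(UMIs + 1), and the numbers are UMIs, with blank for 0. The 10 WT 24 h cells each hold 12 to 107 Prg4 and 7 to 2059 Cxcl13 UMIs, whereas 1 of 13 WT 72 h cells has Cxcl13.

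Depth affects how many genes are seen in a cell, so shares were also taken after each cell had been thinned at random to 1000 UMIs. As deposited, 18.81%, 15.57%, 25.58% and 22.05% of monocyte/Mφ-gated cells (the 24 h libraries first, WT before CCR2 KO) had at least 1 of the 7 genes and 1.171%, 2.358%, 4.338% and 2.362% had at least 2. After thinning, the shares with at least 1 were 2.749%, 3.828%, 3.371% and 2.439%. With at least 2 they were 0.707% (9 of 1273 cells), 0.4785% (1 of 209) and 0.6742% (6 of 890) in the first 3 libraries, and CCR2 KO 72 h had 0 of 123, a count compatible with at most 2.439%. The intervals of the 4 libraries overlapped after thinning.

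**Figure D4:**
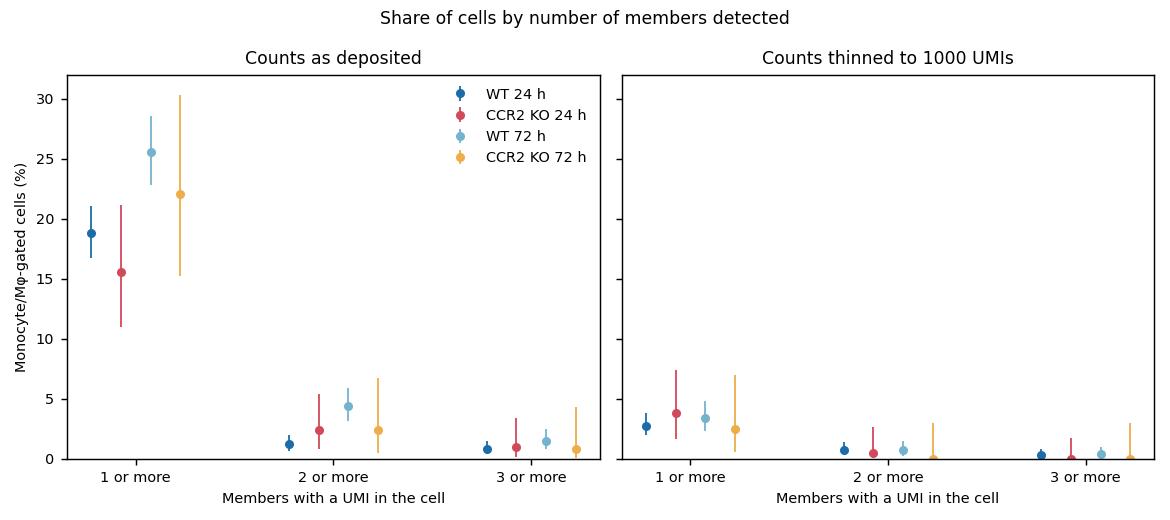
Share of monocyte/Mφ-gated cells (%) with a UMI of 1, 2 or 3 or more of the 7 genes in each library, as deposited (left) and thinned to 1000 UMIs per cell (right), with 95% Clopper-Pearson intervals. Thinning brings the share with at least 1 gene from 15.57% to 25.58% down to 2.439% to 3.828%.

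The strongest pairing was Prg4 with Cxcl13 in WT 24 h. After thinning, 7 of 8 Prg4 cells had Cxcl13 (87.5%, 47.35% to 99.68%), against 4 of 1265 cells without Prg4 (0.3162%). All 8 had at least 1 other gene of the 7, and 5 of 6 Prg4 cells did in WT 72 h (83.33%). Of the 21 possible pairs, 21 shared at least 1 cell in WT 24 h as deposited, 12 in CCR2 KO 24 h, 19 in WT 72 h and 3 in CCR2 KO 72 h. Pairs that shared 5 or more cells numbered 15 in WT 24 h and 8 in WT 72 h, with 0 in either CCR2 KO library, where the gate held 212 and 127 cells and such a number could hardly be reached.

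The cells with 3 or more of the genes were described by genes outside the 7, against the cells of the same gate and library with none. A listed gene was counted when its summed level differed at least 2-fold with an interval that left out 0. In WT 24 h, 11 of 13 other large peritoneal Mφ genes were higher and 0 lower, with a median log2 ratio of 6.07, beside 7.22% of 8799 genes called higher, 13.6% called lower and a median of -0.27 over all genes. Alox15, the 12/15-lipoxygenase, was at 2128 CPM in the 10 cells, with UMIs in every one, and at 0.1315 CPM in the 1040 others (log2 ratio 13.98, 12.12 to 17.03). Saa3, an acute phase protein, was at 140097 CPM against 2087 (6.07, 6.05 to 6.09) and made up 14.01% of all UMIs of the 10 cells against 0.2087%. The scavenger receptor gene Marco was at 2050 against 7.099 CPM (8.17), and Ltbp1, which encodes a TGF-β binding protein, at 321 against 0.1315 CPM (11.25). Vsig4, a complement receptor gene, was at 352 CPM from 5 of the 10 cells, and Serpinb2 at 652.3 CPM against 8.479.

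Genes of small peritoneal Mφs had the opposite direction: in WT 24 h 0 of 7 were higher and 6 lower, with a median log2 ratio of -3.66. For this and the next lists, the shares over all genes were 7.22% higher and 13.6% lower. The MHC class II genes H2-Ab1 (139.8 against 1619 CPM) and H2-Eb1 (41.41 against 1247 CPM) were among them. So were the class II chaperone gene Cd74 (398.6 against 5040 CPM) and the mannose receptor gene Mrc1 (25.88 against 474.8 CPM). Mrc1 was also a marker of the gate. Ccr2 was at 82.83 against 764.7 CPM, with all 16 of its UMIs in 1 of the 10 cells, the one with the fewest Prg4 UMIs. In the list of long-lived tissue Mφ genes 2 of 5 were higher and 1 lower. The 2 were Vsig4 and Marco, which the large peritoneal list holds too, and Folr2 was at 0 UMIs against 62.51 CPM. Of the retinoid receptors and transcription factors, 2 of 9 were higher and 1 lower: Klf2, a Krüppel-like factor gene, was at 973.2 against 166.4 CPM and Bhlhe40 at 93.18 against 36.48 CPM, while the retinoic acid receptor gene Rara was at 10.35 against 55.02 CPM.

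In WT 72 h the 13 cells had 8 of 10 other large peritoneal Mφ genes higher and 0 lower (median log2 ratio 3.34), beside 5.28% of 8981 genes called higher, 3.99% lower and a median of 0.01. Saa3 was at 10583 against 31.94 CPM (8.37), Fn1, which encodes fibronectin, at 13046 against 1159 CPM (3.49), Thbs1, which encodes thrombospondin, at 2799 against 418.5 CPM (2.74) and Serpinb2 at 165.5 against 0.7709 CPM (7.75). Alox15 was found in 5 of the 13 cells, Marco in 1 and Vsig4 in 0. Ltc4s was found in 13 of the 13 and Timp2 in 12. The study names Fn1, Saa3 and Ltc4s for a branch of monocyte-derived muscularis Mφs, and Ltc4s for its Timp2+ Mφs. It also reports high inferred activity of the genes under Cebpb and Gata6 in Timp2+ Mφs. Its discussion likens large peritoneal Mφs to that subset. In WT 24 h, Timp2 was found in 10 and Ltc4s in 8 of the 10 cells. Whether the 13 cells were peritoneal Mφs or Timp2+ Mφs of the muscularis was not tested. Of 9 small peritoneal Mφ genes, 0 were higher and 8 lower (median -1.96), although 2 cells carried 156 and 172 H2-Ab1 UMIs. Ccr2 was found in 7 of 13 cells at 436.4 CPM, against 1060 CPM in the cells with none. Of 9 transcription factor genes 3 were higher, Klf2 (1791 against 343.1 CPM), Bhlhe40 and Cebpb, and 0 lower, and of 4 long-lived tissue Mφ genes 0 were higher and 1, Gas6, lower.

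Genes that work with factor V and P-selectin were read in the same cells. In the coagulation list, without F5 itself, 3 of 6 were higher and 0 lower in the cells with 3 or more genes in WT 24 h (median log2 ratio 0.90), and 3 of 6 and 0 in WT 72 h (1.88). F10, the protease for which factor V is the cofactor, was at 1160 against 294 CPM in WT 24 h (1.98, 1.78 to 2.17) and 431.4 against 51.43 CPM in WT 72 h (3.07, 2.72 to 3.40). Among known partners of the 7 genes, 2 of 5 were higher and 1 lower in WT 24 h and 2 of 5 and 0 in WT 72 h: Selplg, the ligand of P-selectin, was at 248.5 against 96.3 CPM in WT 24 h, Itgb2, an integrin chain that binds ICAM2, at 712.2 against 269.4 CPM in WT 72 h, and Cd44 was at 113.9 against 390.3 CPM in WT 24 h. Cxcr5, the receptor of CXCL13, had 0 UMIs in these cells. Of the 21 genes compared among those the study uses to name muscularis Mφ subsets, 4 were higher and 9 lower in WT 24 h, and 7 and 10 in WT 72 h. Beside the counts of these lists, 7.22% of all genes were called higher and 13.6% lower in WT 24 h. In WT 72 h those shares were 5.28% and 3.99%. The study named those subsets from muscularis cells of the same injury model.

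**Figure D5:**
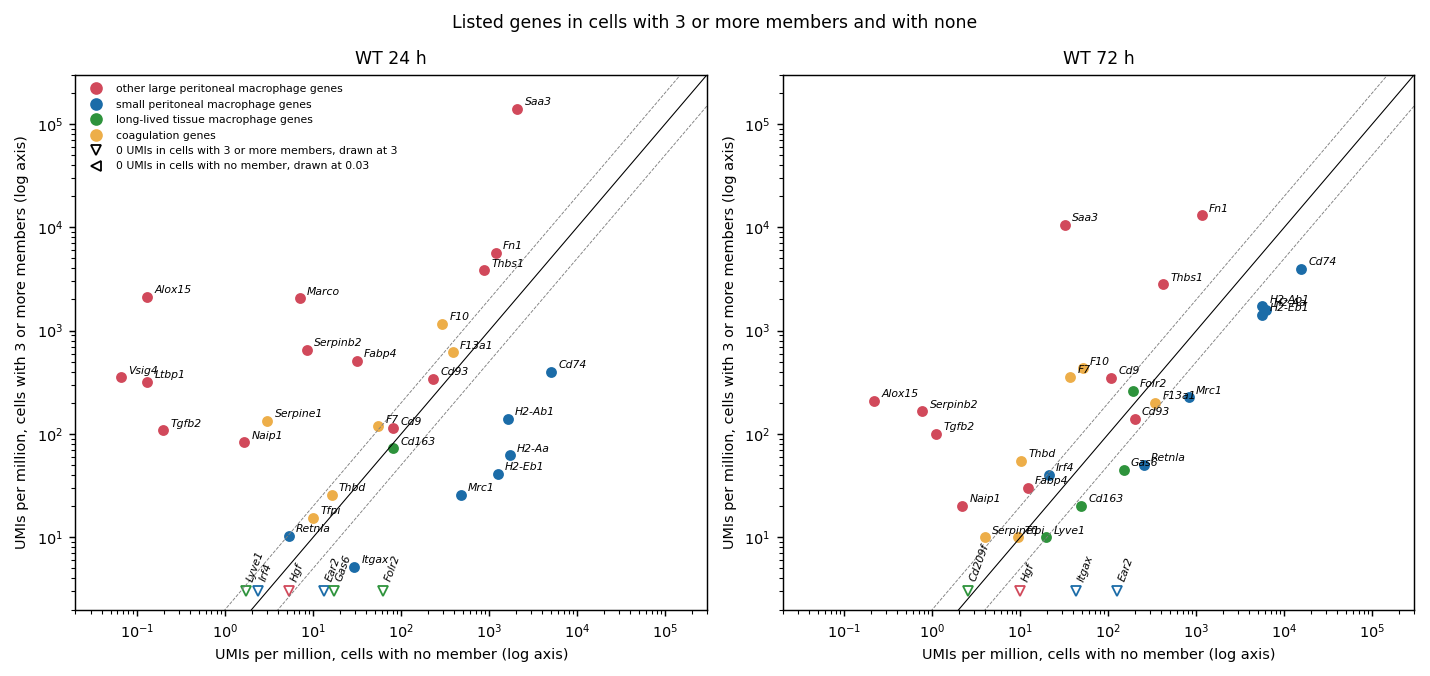
Summed level of listed genes (UMIs per 1000000, log axes) in WT monocyte/Mφ-gated cells with 3 or more of the 7 genes against cells with none, at 24 h (left, 10 against 1040 cells) and 72 h (right, 13 against 669 cells); the solid line marks equal levels, dashed lines 2-fold, and open triangles 0 UMIs. Most large peritoneal Mφ genes lie above the line (Hgf at both times and Cd93 at 72 h do not), Alox15 at 2128 against 0.1315 CPM at 24 h, and MHC class II genes below it.

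Markers of other cells were looked for in the same 10 WT 24 h cells, since P-selectin, ICAM2 and factor V are also made by endothelium or platelets. Of 5 endothelial markers 4 were at 0, and the 5 summed to 1 UMI (5.177 CPM, 0.1311 to 28.84) against 18.54 CPM in cells with none of the 7 genes. Of 4 platelet and megakaryocyte markers 3 were at 0, and the remaining one, Pf4, was at 2112 CPM against 2980 CPM for the 4 markers in the cells with none. All 3 mesothelial and all 6 fibroblast and muscle markers were at 0. In the 13 WT 72 h cells the endothelial markers summed to 2 UMIs (10.03 against 13.77 CPM) and the mesothelial markers to 1 UMI. Ptprc, which encodes the sorted protein CD45, was found in 9 of the 10 cells, at 139.8 against 360.7 CPM in the cells with none (log2 ratio -1.37), and in 13 of the 13. Too few UMIs of these markers were present for most of them to be compared gene by gene.

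Of the monocyte/Mφ-gated cells with Timd4, 2 of 4 in WT 24 h, 1 of 7 in CCR2 KO 24 h, 1 of 6 in WT 72 h and 0 of 8 in CCR2 KO 72 h had 3 or more of the genes. In CCR2 KO 24 h, 4 of 4 long-lived tissue Mφ genes were higher in the 7 cells with Timd4 than in the 205 without (median log2 ratio 3.85), beside 5.74% of 7756 genes called higher, 2.54% lower and a median of 0.16. Folr2, a folate receptor gene, was at 366.9 against 20.32 CPM (4.18, 3.59 to 4.75) with UMIs in 4 of the 7 cells, Gas6, which encodes a bridging ligand for dead cells, at 331.9 against 28.9 CPM in 4 cells, and the haemoglobin scavenger receptor gene Cd163 at 113.6 against 23.75 CPM in 3 cells. The 38 Cd209f UMIs were all in 1 cell. Of 8 other large peritoneal Mφ genes, 1 was higher and 3 lower, and 1 of the 7 cells also held the 211 Cxcl13 UMIs. Of 21 muscularis subset genes, 8 were higher, among them Igf1 (148.5 against 23.46 CPM) and Selenop (987.1 against 237.5 CPM), and 6 lower, among them Arg1, which encodes arginase (34.94 against 920.3 CPM), and the monocyte gene Chil3 (174.7 against 935.4 CPM). The Timd4 cells were the shallower ones, with median depths of 12187 against 15992 UMIs.

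In CCR2 KO 72 h, 3 of 4 long-lived genes were higher in the 8 cells with Timd4 (median 1.24), beside 3.20% of 7245 genes called higher, 1.66% lower and a median of 0.05. Lyve1, a hyaluronan receptor gene, was at 151.3 against 31.18 CPM (2.28, 1.29 to 3.16) and Gas6 at 407.4 against 184.5 CPM with UMIs in 8 of 8 cells. Ccr2, Ly6c2 and Chil3, genes of monocytes, had 0 UMIs in the 8 cells, against 88.94, 109.4 and 159.5 CPM in the 119 without Timd4. Of 6 other large peritoneal Mφ genes 0 were higher and 2 lower, and of 21 muscularis subset genes 1, Ltc4s, was higher and 7 lower. Median depth was 9784 against 15136 UMIs. In WT 72 h, with 6 Timd4 cells, 3 of 5 long-lived genes were higher (median 1.81), beside 3.25% of 8554 genes called higher and 1.13% lower: Lyve1 was at 113.7 against 18.03 CPM, Cd163 at 186.8 against 46.23 CPM and Folr2 at 544.2 against 207.1 CPM. In that library 1 of 8 other large peritoneal Mφ genes was higher and 1 lower, and the median depths were 22438 and 14106 UMIs.

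F5 in WT 72 h was spread over 74 monocyte/Mφ-gated cells, most of which did not carry the other genes. After the cells with 3 or more of the 7 had been left out, 63 cells with F5 were set against 823 without. Of 9 other large peritoneal Mφ genes, 3 were higher and 1 lower, beside 1.67% of 10594 genes called higher and 1.88% lower. The 3 were Saa3 (389.5 against 56.05 CPM, log2 ratio 2.80, 2.62 to 2.98), Fn1 (3398 against 1234 CPM) and Serpinb2 (18.33 against 1.016 CPM). F10 was at 150.3 against 54.36 CPM (1.47, 1.21 to 1.72). Genes named after their values were seen were Cd5l, a scavenger receptor cysteine-rich protein gene (182.4 against 22.86 CPM, 14 of 63 cells), Padi4, a peptidylarginine deiminase gene (105.4 against 18.88 CPM, 23 of 63 cells), and Lrg1 (112.7 against 25.15 CPM, 25 of 63 cells). Retnla, which encodes a resistin-like molecule, was at 2067 against 321.9 CPM, from 11 of 63 cells. For Icam2, again in cells with fewer than 3 of the genes, 1 of 10 other large peritoneal Mφ genes was higher and 1 lower in WT 24 h, beside 0.488% and 0.747% of 10441 genes, and 1 of 9 and 1 in WT 72 h, beside 0.710% and 0.775% of 10708 genes.

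F5 and Selp in neutrophils were read by library. F5 was at 7.555, 13.82, 25.16 and 24.01 CPM in neutrophils, in the same order of libraries, from 6, 49, 11 and 47 cells, and Selp at 28.96, 24.77, 23.06 and 14.23 CPM, from 17, 90, 9 and 23 cells. The lowest F5 value, in WT 24 h (2.773 to 16.44, 6 UMIs), overlapped CCR2 KO 24 h (10.49 to 17.86) and WT 72 h (13 to 43.94). It lay below CCR2 KO 72 h (18.03 to 31.32). The lowest Selp value, in CCR2 KO 72 h (9.731 to 20.08), overlapped WT 24 h (18.36 to 43.46) and WT 72 h (11.51 to 41.26). It lay just below CCR2 KO 24 h (20.24 to 30.02). In CCR2 KO 24 h, 8 of the 49 neutrophils with F5 also had Selp (10 UMIs, 50.76 against 23.49 CPM in the others). The 90 Selp neutrophils there had more Cd177, a neutrophil surface protein gene (208.3 against 83.69 CPM, log2 ratio 1.32, 0.93 to 1.69), more Padi4 (85.62 against 36.9 CPM) and more Ccl6 (4515 against 1918 CPM, in 73 of 90 cells) than the 1247 without, and less Itgax (14.27 against 91.22 CPM). Pf4, a platelet gene, was at 28.54 against 7.017 CPM in the same cells, from 10 UMIs in 5 of the 90; its part in the Selp values was not tested. Median depth was 3700 against 2898 UMIs.

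Timd4 in DCs was found in every library, at 18.22, 21.22, 29.83 and 8.89 CPM in the order above, from 4, 3, 10 and 4 cells and 10, 25, 53 and 27 UMIs. In each library 1 cell held a large part of them, 40%, 64%, 49.06% and 62.96% in that order. In WT 72 h, the 10 DCs with Timd4 were set against the 88 without, using genes named after their values were seen. Cd83, an activation marker of DCs, was at 526.2 against 145.6 CPM (log2 ratio 1.85, 1.5 to 2.2) with UMIs in 9 of the 10 cells. Lag3 was at 173.7 against 20.8 CPM, Il4i1, which encodes an amino acid oxidase, at 457.8 against 73.75 CPM and Il18 at 105.2 against 19.54 CPM, each in 5 of the 10. In CCR2 KO 72 h, the 4 Timd4 DCs had Lag3 at 82.05 against 25.38 CPM, from 1 cell, and 0 UMIs of Ccr7, the receptor by which DCs migrate to lymph nodes, against 97.08 CPM. Ccr7 in WT 72 h was at 242.1 against 59.25 CPM, from 3 of the 10 cells.

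Prg4 outside the monocyte/Mφ gate was mostly in T cells, with 18 UMIs in 9 of 215 cells, of which 15 UMIs in 7 of 94 cells came from CCR2 KO 72 h (17.73 CPM). In those 7 cells, against the 87 T cells without Prg4, regulatory T cell genes were read after their values had been seen, and so as values only. Foxp3, the transcription factor of regulatory T cells, was at 369.6 against 113.1 CPM (1.71, 1.10 to 2.29), Ctla4 at 1119 against 243.5 CPM, Ccr4 at 200.6 against 50.57 CPM and the gut homing receptor gene Ccr9 at 1214 against 254.2 CPM, each with UMIs in 7 of 7 cells, while Ikzf2 was at 179.5 against 379.3 CPM. Median depth was 12573 against 7376 UMIs, and its part in the detection of Prg4 in these cells was not tested.

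The genes whose levels were most like each of the 7 over 19 profiles (the classes with at least 20 cells in a library) were taken from 11837 genes, as Pearson's r of log2(CPM + 1). These points share libraries and depth, and the values are a description of class sums. They do not show whether such genes are found in the same cells. For Cxcl13 they were Tmem215 (0.94), Marco (0.93), Ceacam19, Ppbp and Spsb4, and for Prg4 Fam83f (0.76), Gspt2, Tmem165, Ltbp1 and Rapsn. Timd4 was most like Tspan33 (0.96), Ocstamp, Cabp4, Gsg1 and Ctnnd2, and Icam2 most like 1300002E11Rik (0.93), Tspan32, Nr1d2, Gm11713 and Sh3kbp1. F5 was most like Hnmt (0.98), Vnn3, Lrg1, Sgms2 and Acta2, and Selp most like Ugt1a6a (0.95), 1110002J07Rik, Exoc3l4, Zfp263 and Rasip1. Gata6 had too few UMIs for this. In thinned monocyte/Mφ-gated cells of WT 24 h, detection of each gene was also correlated with detection of Cxcl13, as a phi coefficient. The highest values were those of Ctla2a (0.85), Alox15 (0.80), Prg4 (0.74), Orm1 (0.67) and Marco (0.63).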

How the data were processed

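The deposited counts were whole UMIs per gene and cell, 1 table per library, not normalized. The authors had prepared 10x 3' libraries (v3 kit), counted UMIs with Cell Ranger 3.0.2 against GRCm38 (mm10), used Seurat, and kept cells of at least 200 genes and at most 10% mitochondrial UMIs, per the labels and the study's methods. Groups came from the labels. Cells were gated in Python 3.11.15 (numpy 2.4.6, scipy 1.17.1, pandas 2.3.3, scanpy 1.11.5) by the class with the highest mean marker score, each gene scaled to its quantile at 99%. The best score had to reach 0.1 and the second could be at most 0.75 of it, otherwise a cell was mixed (127 cells) or unclassed (31). These limits were set after the data were seen. UMIs were summed per class and library, and ratios were compared for genes with at least 20 UMIs over both sides and a defined ratio; a 0 was read as 3 UMIs and not used where that turned the sign. Intervals were Poisson, Clopper-Pearson and conditional binomial, at 95%. No significance test was possible with 1 library per group. No doublet was removed, since Scrublet marked 11 of 5811 cells (0.189%); whether doublets had been removed before deposit is not given in the sources used here. edgeR 4.0.16 in R 4.3.3 gave TMM factors for an alternative only, which shifted every log2 ratio of CCR2 KO to WT by -0.07 at 24 h and -0.16 at 72 h, and those of 72 h to 24 h by -0.15 in WT and -0.24 in CCR2 KO. Figures were drawn with matplotlib 3.10.9. The named genes were the 7, every list's largest differences, and the 5 genes most like each of the 7 with at least 50 UMIs. The 7 genes and the lists were chosen with earlier results of these data known, and genes said to be named after their values were seen were added later. Scripts were tested on simulated counts. Of the listed markers, 7 had no row in the tables used here.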

Additional observations from a re-analysis of the deposited data

Results flagged for a closer look

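Some cells were left out of every comparison because the marker gate put them in more than 1 class or in none, and UMIs of the 7 peritoneal Mφ genes were found in them. Mixed cells held 4 such UMIs in WT 24 h, 5 in CCR2 KO 24 h, 17 in WT 72 h and 10 in CCR2 KO 72 h. The unclassed cells of CCR2 KO 24 h held 6, which came from 1 cell with Prg4, Cxcl13 and Icam2. All 5 sums were above the 3 UMIs that a count of 0 allows, which is why they are given here.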

How the results depend on the processing

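No paired analysis was possible because each group was 1 library and the labels number no replicates, and no replicate could be left out. With a pseudocount of 5 CPM, 2 of the 7 genes passed 2-fold between genotypes at 24 h in place of 6, 1 in place of 4 at 72 h, and 2 in place of 5 between the times in WT. Averaging single cells in place of summing them gave 3 at 24 h, and Selp between the times in WT turned to 0.54. Without the cells with 3 or more of the genes, an alternative added after the data were seen, 3 passed between genotypes at 24 h and 2 between the times in WT, and the log2 ratios of CCR2 KO to WT at 24 h turned to 4.09 for Cxcl13, where 1 CCR2 KO cell held 211 of 219 UMIs, and 0.68 for F5. Those cells were chosen by the same genes and held 98.86% and 70.15% of the WT UMIs, so this filter itself fixed the change. Without the top cell of each gene, 2 passed between genotypes at 72 h, as Timd4 could not be compared and Prg4 gave only a bound, and 0 between the times in CCR2 KO. With at most 5% mitochondrial UMIs, 1 passed at 72 h, where F5 turned to 0.55, and 2 between the times in CCR2 KO. That last count, 1 as reported, was 3 with no minimum of UMIs and 2 without the 5% of cells with the highest Scrublet scores, also added later. The share of cells with 2 or more genes was 0 in CCR2 KO 24 h and 0.1124% in WT 72 h when 2 UMIs were required, and 4.338% in WT 72 h without thinning. The share of WT 72 h Prg4 cells with another of the genes was 100% when thinned to 2000 UMIs, with at most 5% mitochondrial UMIs or with a stricter gate, and 33.33% when 2 UMIs were required. Over all settings, 34 of 46 counts, 189 of 222 log2 ratios, 29 of 32 shares and 12 of 16 co-detection values moved by less than the limit used for each. The cause of the other changes was not tested. Both depth per cell and the number of cells, 212 and 127 monocyte/Mφ-gated cells in CCR2 KO, limit these values.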
